A study of Rattus norvegicus with 6 samples.

Results

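The miRNAs described here are the arms of miR-219a and miR-338, which mark the oligodendrocyte lineage. They were chosen by name, as the 5 rows rno-miR-219a-5p, rno-miR-219a-1-3p, rno-miR-219a-2-3p, rno-miR-338-3p and rno-miR-338-5p (rno, for rat, is left out from here on) of the 775 miRNAs in the deposited count table. The rows were read in 6 small RNA libraries of rat brain, with 3 from the 2VO group and 3 from the tilianin-treated 2VO group. All rats were male Sprague-Dawley animals aged 7 weeks when purchased, and both groups underwent 2-vessel occlusion (2VO), the ligation of both common carotid arteries, which keeps cerebral blood flow low and serves as a model of vascular dementia (VaD). The tilianin-treated 2VO rats received 40 mg/kg tilianin, a flavonoid glycoside, daily by gastric tube for 4 weeks in 0.5% CMC-Na, and the 2VO rats received the same vehicle (5 mL/kg). The labels give the tissue as brain, the study describes it as cortical, and no source used here says whether a library is 1 rat. P-values therefore measure only the spread between these libraries. Sham libraries were not analysed here, so the comparison is between treated and untreated 2VO brains.

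Oligodendrocytes wrap axons in myelin and make up much of the white matter, which is a main site of damage under chronic hypoperfusion. In this lineage miR-219 and miR-338 are among the miRNAs that rise most as precursors leave the cell cycle and differentiate. They repress messages that hold the precursor state, among them those of the growth factor receptor Pdgfra and the transcription factors Sox6 and Hes5, and mice that lack them form myelin poorly. miR-338 is encoded in an intron of Aatk, a kinase gene of the nervous system. Each miRNA hairpin yields a 5p and a 3p arm, and the seed (bases 2 to 8 from the 5′ end) sets which messages an arm recognizes.

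The mature sequences below, from RefSeq (GRCr8), show that the 5 arms have 5 different seeds, so that their target sets differ. The seed is in capitals.
miR-219a-5p: uGAUUGUCcaaacgcaauucu
miR-219a-1-3p: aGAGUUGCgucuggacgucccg
miR-219a-2-3p: aGAAUUGUggcuggacaucugu
miR-338-3p: uCCAGCAUcagugauuuuguuga
miR-338-5p: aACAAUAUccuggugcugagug

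The miR-219a-1 hairpin lies at chr20:4831580-4831689 on the plus strand of GRCr8, next to Ring1, a Polycomb gene. The miR-219a-2 hairpin lies at chr3:33516504-33516599 on the minus strand, inside the span of Cercam, which is on the plus strand, and of the lncRNA gene LOC120101515, which is on the minus strand. The miR-338 hairpin lies at chr10:105796342-105796407 on the minus strand, inside Aatk and on the same strand as it. The build behind the deposited counts is not given in the sources used here, so these positions belong to the RefSeq sequences and not to the count table. The miR-219a-5p sequence is contained in both miR-219a hairpins, so its count cannot be divided between them. The 3p arms of miR-219a-1 and miR-219a-2 are identical at 15 of 22 positions, counted from the 5′ end.

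At 2 of these 3 loci a second miRNA is annotated on the opposite strand, and its mature sequences are nearly the reverse complement of the arms above. These are miR-219b opposite miR-219a-2-3p, miR-3065-5p opposite miR-338-3p, and miR-3065-3p opposite miR-338-5p. They are shown because the counts at these loci divide between the strands, and the seed is again in capitals.
miR-219b: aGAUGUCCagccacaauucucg
miR-3065-5p: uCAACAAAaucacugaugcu
miR-3065-3p: uCAGCACCaggauauuguugggga

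Set beside each arm, the reverse complement of its partner shares a run of 19 to 20 bases, in capitals.
miR-338-3p: uccAGCAUCAGUGAUUUUGUUGA
miR-3065-5p, reverse complement: AGCAUCAGUGAUUUUGUUGA
miR-338-5p: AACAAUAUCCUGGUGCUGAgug
miR-3065-3p, reverse complement: uccccAACAAUAUCCUGGUGCUGA
miR-219a-2-3p: AGAAUUGUGGCUGGACAUCUgu
miR-219b, reverse complement: cgAGAAUUGUGGCUGGACAUCU

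Library totals ran from 7428890 to 13198776 counts for 2VO and from 7175872 to 9464216 for tilianin. The limit that a count of 0 allows is 3 counts, or 0.227 to 0.418 CPM (the count scaled to a common library size of 1e6) by library total, and this limit covers counting error only. Tilianin-treated replicate 2 stood apart, since over the 454 tested miRNAs its Spearman rho to the other libraries was 0.936 to 0.957, against 0.983 to 0.992 among the other 5. The comparisons of the arms, their opposite-strand miRNAs and the marker lists that it led or trailed are therefore given with and without it.

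In these brain libraries the miR-219a arms were close to absent from the table, and miR-338-3p was present at a low level. miR-219a-5p, the arm that both miR-219a hairpins share, had 1 count in 2VO replicate 2 and 0 in the other 5 libraries. miR-219a-1-3p had 0 counts in all 6 libraries. miR-219a-2-3p had 5, 6 and 0 counts in 2VO replicates 1, 2 and 3, against 1, 6 and 0 counts in replicates 1, 2 and 3 of the treated group. With at most 6 counts, its libraries cannot be ordered beyond counting error. miR-338-5p had 1 count each in treated replicates 1 and 2 and 0 in the other 4 libraries. miR-338-3p had 194, 450 and 141 counts in the 2VO libraries and 291, 321 and 143 in the treated libraries. Its 1540 counts over the 6 libraries compare with 18 for miR-219a-2-3p, the next of the arms, and it ranked 222 among the 775 listed miRNAs by mean CPM. The lowest library of miR-338-3p was far above the highest of miR-219a-2-3p, whereas miR-219a-5p, miR-219a-1-3p and miR-338-5p did not differ beyond counting error. These low counts stand against the abundance for which the arms are known in oligodendrocytes, so the rows are described by their names and not as a measure of these cells.

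**Figure D1:**
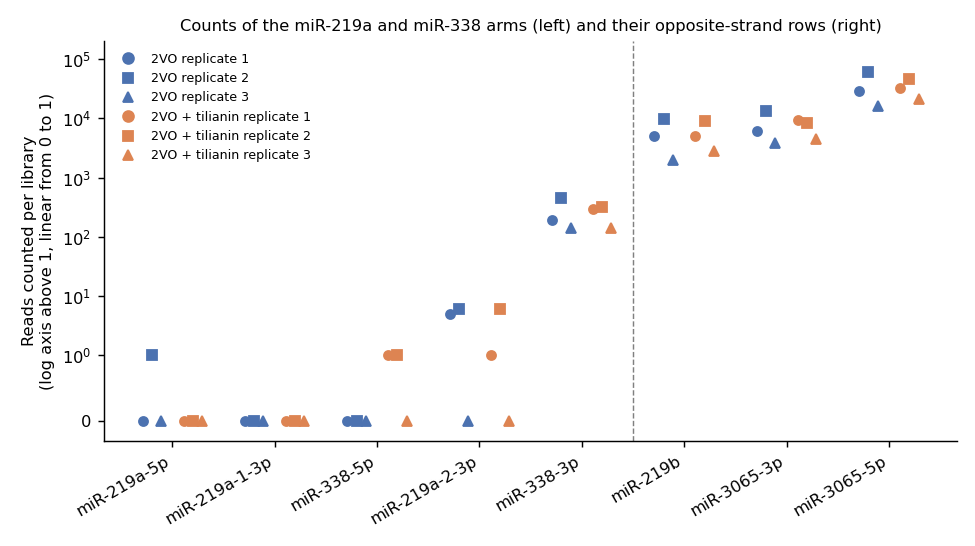
Reads counted in each of the 6 libraries (vertical axis, logarithmic above 1 and linear from 0 to 1) for the 5 miR-219a and miR-338 arms (left of the dashed line) and the 3 miRNAs annotated opposite them (right). Blue marks 2VO and orange marks 2VO with tilianin, and the shape gives the replicate number. miR-338-3p lies between 141 and 450 counts and the other 4 arms at 6 or fewer, whereas the opposite-strand miRNAs lie between 2012 and 60759.

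The opposite-strand miRNAs held most of the counts at these loci in every library. miR-3065-5p, opposite miR-338-3p, had 28977, 60759 and 16208 counts in 2VO replicates 1, 2 and 3, against 32863, 47178 and 20905 counts in the treated replicates, and ranked 27 of the 775 miRNAs. miR-3065-3p, opposite miR-338-5p, had 6177, 13332 and 3907 counts in the 2VO libraries and 9581, 8260 and 4482 in the treated libraries. miR-219b, opposite miR-219a-2-3p, had 5046, 9957 and 2012 counts in the 2VO libraries and 5073, 8884 and 2821 in the treated libraries. Over all libraries, miR-3065-5p had 134 counts for each count of miR-338-3p, and miR-219b had 1877 for each count of miR-219a-2-3p. The sequences printed above show how closely each pair mirrors the other, so a read of one arm counted without its strand could be placed on either. The strand setting of the authors' counting is not given in the sources used here. From the counts alone it cannot be told whether reads of an arm were placed on its opposite miRNA.

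Of the counts of miR-338-3p and miR-3065-5p together, miR-338-3p held 0.665%, 0.735% and 0.862% in the 2VO libraries (replicates 1, 2 and 3), against 0.878%, 0.676% and 0.679% in the treated libraries in the same order. The exact Clopper-Pearson 95% intervals of these shares ran from 0.573% at the lowest bound to 1.02% at the highest. The group means were 0.754 ± 0.10% and 0.744 ± 0.116% (SD, n = 3 each), with p = 1 in a two-sided exact permutation test. The lowest share, in 2VO replicate 1, had an interval of 0.575% to 0.765%. This lay below the interval of the highest share, in tilianin-treated replicate 1 (0.780% to 0.984%). These libraries were picked as the extremes, and the intervals are not adjusted for that choice. The CPM of miR-338-3p differed by up to 2.83-fold between libraries. miR-219a-2-3p held at most 0.0990% of its pair, and miR-338-5p at most 0.0121%. No opposite-strand miRNA was matched to miR-219a-5p or miR-219a-1-3p.

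Annotated strand also went with the count over the whole table. By RefSeq, 391 of the listed miRNAs are on the plus strand, with a median of 626 counts over the 6 libraries, and 47 of them (12.0%) had 0 counts. The 288 on the minus strand had a median of 0 counts, and 152 of them (52.8%) had 0 counts. Of the 5 arms, 4 are listed on the minus strand, and the plus-strand arm, miR-219a-1-3p, was at 0. The miR-219a-5p sequence also lies in the plus-strand miR-219a-1 hairpin, and its row held 1 count. Among 44 pairs of miRNAs that overlap on opposite strands by at least 15 bases and had at least 10 counts, the plus-strand miRNA was higher in 41. In 34 the minus-strand miRNA held under 1% of the pair. Some of the 41 were near parity, with 49.3% for miR-133a-3p, 49.3% for miR-218a-5p and 46.4% for miR-29b-3p. Of these, miR-218a-5p and miR-29b-3p are annotated on both strands. The 3 pairs outside the 41 had more counts on the minus strand (miR-299b-3p, miR-24-1-5p and miR-31a-5p, named because they are the exceptions). Of the 288 minus-strand miRNAs, 24 had at least 1000 counts, and 18 of these were outside such pairs. The part of strand in the low counts of the miR-219a and miR-338 arms was not tested.

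**Figure D2:**
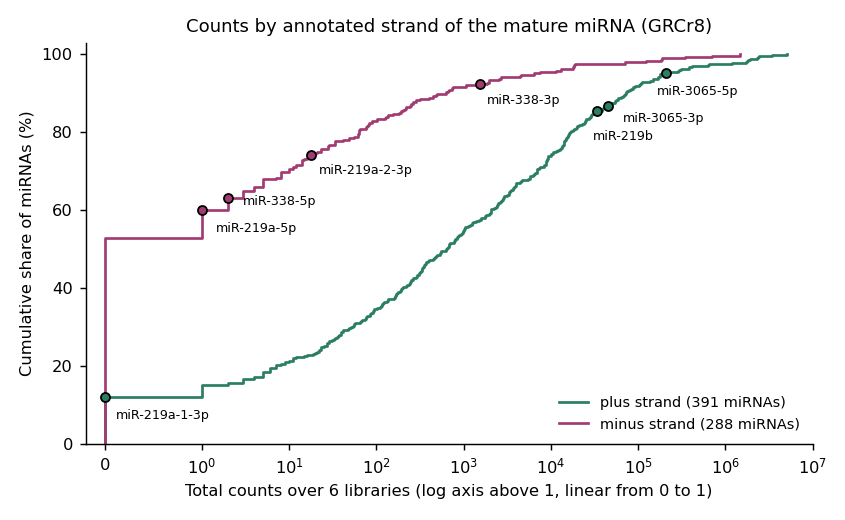
Cumulative share of miRNAs (vertical axis, %) by their total count over the 6 libraries (horizontal axis, logarithmic above 1), for the 391 miRNAs on the plus strand (green) and the 288 on the minus strand (purple) of GRCr8. Circles mark the 5 arms and the 3 opposite-strand miRNAs. The minus-strand curve starts at 52.8% of miRNAs with 0 counts, against 12.0% for the plus strand, and 4 of the 5 arms lie on it.

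The main comparison asks whether the level of these miRNAs differed between treated and untreated 2VO brains. None of the arms met the screen that the study used, namely p below 0.05 before adjustment together with an absolute log2 fold change above 1 (the criterion). Of the 5 arms, 2 had the 10 counts in total that the test required, and 0 of these 2 were called, against 26 of all 454 tested miRNAs (5.73%), with 21 upregulated (4.63%) and 5 downregulated (1.1%). With the Benjamini-Hochberg adjustment 0 of the 454 had an adjusted p below 0.05 in edgeR's quasi-likelihood test, against 33 at an unadjusted p below 0.05 (7.27%) and 3 each at an adjusted p below 0.05 in DESeq2's Wald test and edgeR's exact test. In whole tissue, fewer oligodendrocytes and less of a miRNA per cell cannot be told apart.

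The level of miR-338-3p in 2VO replicates 1, 2 and 3 was 21.1, 34.7 and 18.2 CPM (after TMM scaling, which adjusts the library sizes). In replicates 1, 2 and 3 of the treated group it was 31.6, 49.4 and 17.5 CPM. The groups overlapped, with the highest and the lowest library both in the treated group. They also overlapped for miR-219a-2-3p, so 0 of the 2 tested arms separated the groups, against 44 of all 454 tested miRNAs (9.69%). The means were 24.7 ± 8.80 CPM and 32.8 ± 16.0 CPM (SD, n = 3 each), and the log2 fold change was 0.41 (standard error, SE, 0.42, 95% interval -0.58 to 1.39), with an unadjusted p of 0.365 and an adjusted p of 0.842 in edgeR's quasi-likelihood test. The two-sided exact permutation test on log2(CPM + 1) gave p = 0.7, where 0.1 is the smallest p that 3 libraries against 3 allow. The positive value rested on tilianin-treated replicate 2. Without it the log2 fold change was -0.0030 (95% interval -0.77 to 0.77, unadjusted p = 0.993 by edgeR), and the mean of the other treated libraries was 24.5 CPM. Leaving out 2VO replicate 2 instead, the highest 2VO library, gave 0.78 (95% interval -0.40 to 1.95, unadjusted p = 0.157 by edgeR). The interval with all 6 libraries reaches beyond the threshold of 1 on the log2 scale, so the data do not show that the level was equal.

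miR-219a-2-3p had 0.545, 0.463 and 0 CPM across the 2VO libraries, against 0.109, 0.924 and 0 CPM across the treated ones. Each group held a library at 0 and a library with 6 counts, so the groups overlapped over their range. The log2 fold change was -0.18 (SE 1.27, 95% interval -3.17 to 2.82), and edgeR's quasi-likelihood test gave an adjusted p of 0.968. It was -2.40 without tilianin-treated replicate 2 (adjusted p = 0.997, edgeR), and positive, from 0.15 to 0.39, without 2VO replicate 1, 2VO replicate 2, treated replicate 1 or treated replicate 3. On 0 to 6 counts a difference between groups was not detectable. For miR-219a-5p, miR-219a-1-3p and miR-338-5p, with 1, 0 and 2 counts over all libraries, no fold is given.

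The 2 arms of the miR-338 hairpin were also compared within each library. With 0.5 counts added to each arm, log2 of miR-338-3p over miR-338-5p was 8.85 ± 0.863 in the 2VO group and 7.84 ± 0.293 in the treated group (SD, n = 3 each), with p = 0.2 by two-sided exact permutation. The 5p arm was at 0 or 1 count, so this ratio depended on single reads and on the added constant. The deepest library, 2VO replicate 2, had the highest value, 9.82, whereas the next deepest, tilianin-treated replicate 1, had the lowest, 7.60. With 1 count added the difference between the groups moved from -1.02 to -0.63. For miR-219a the ratios of each 3p arm over the 5p arm rested on 0 to 6 counts against 0 to 1, and the exact permutation test gave p = 1 for both.

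The opposite-strand miRNAs gave a comparison with far more counts at the same loci. In the 2VO libraries miR-3065-5p stood at 3158, 4689 and 2097 CPM. Across the treated ones it stood at 3569, 7266 and 2552 CPM. The treated group had the highest library, and its lowest lay among the 2VO libraries, so the groups overlapped. The log2 fold change was 0.43 (SE 0.45, 95% interval -0.63 to 1.49), with an adjusted p of 0.849 by edgeR's quasi-likelihood test.

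miR-219b had 550, 768 and 260 CPM across the 2VO libraries, against 551, 1368 and 344 CPM across the treated ones, again with overlapping groups. Its log2 fold change was 0.52 (SE 0.58, 95% interval -0.85 to 1.89, adjusted p = 0.849 by edgeR). miR-3065-3p had 673, 1029 and 505 CPM across the 2VO libraries, against 1041, 1272 and 547 CPM across the treated ones, with a log2 fold change of 0.37 (SE 0.39, 95% interval -0.54 to 1.28, adjusted p = 0.842 by edgeR). As for miR-338-3p, tilianin-treated replicate 2 was highest of the 6 libraries for all 3. That library was highest for 150 of all 454 tested miRNAs (33.0%), so this place is common in it.

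Without tilianin-treated replicate 2 the log2 fold changes were -0.11 for miR-3065-5p, -0.23 for miR-219b and 0.12 for miR-3065-3p, with an adjusted p of 0.997 for each in edgeR's quasi-likelihood test. When the counts of each arm and its opposite were summed, the log2 fold changes were 0.43 for miR-338-3p with miR-3065-5p, 0.37 for miR-338-5p with miR-3065-3p and 0.52 for miR-219a-2-3p with miR-219b, and none was called (adjusted p = 0.845, 0.845 and 0.854 by edgeR). The sums are close to the values of the opposite-strand miRNAs, which supply nearly all of their counts.

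**Figure D3:**
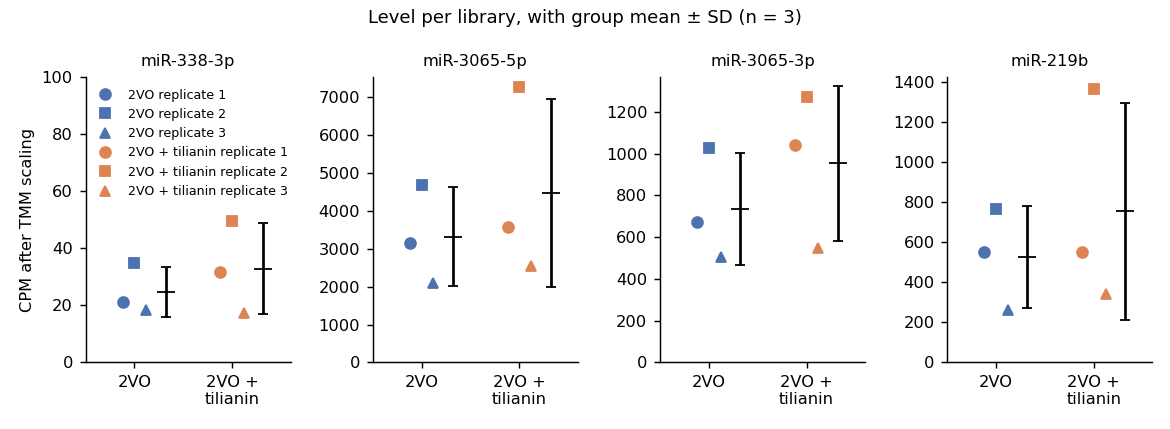
Level of miR-338-3p and of the 3 opposite-strand miRNAs in each library (vertical axis, CPM after TMM scaling, from 0), with 2VO in blue and 2VO with tilianin in orange, and the group mean ± SD (n = 3) as black bars. The groups overlap in every panel, and tilianin-treated replicate 2 is the highest library in each, at 49.4 CPM for miR-338-3p and 7266 CPM for miR-3065-5p.

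Other miRNAs with known roles in oligodendrocytes were set beside them as a list of 12. miR-32-5p, which acts on myelin protein expression, had 0 counts in all libraries. It is listed on the minus strand, where 152 of 288 miRNAs (52.8%) had 0 counts. The other 11 were tested. None passed the criterion, against 26 of all 454 tested miRNAs (5.73%). In the list 8 had a positive and 3 a negative log2 fold change, against 212 positive and 242 negative over all 454. The positive values include those of all listed members of the same cluster, given below. The median of the list was 0.15, against -0.03 over all 454 tested miRNAs. Whether the list differed from all tested miRNAs was not tested. In the list, miR-7a-5p was the 1 with an unadjusted p below 0.05. It promotes the making of oligodendrocyte precursors and is also abundant in neurons and endocrine cells. It had 8532, 7541 and 3508 CPM across the 2VO libraries, against 3966, 2706 and 3901 CPM across the treated ones. Its groups overlapped, since 2VO replicate 3 lay below 2 of the treated libraries. The log2 fold change, -0.89 (SE 0.35), had an unadjusted p of 0.0395 and an adjusted p of 0.637 by edgeR's quasi-likelihood test. Without 2VO replicate 3 it was -1.20 with an unadjusted p of 0.00327 by edgeR, which meets the criterion. Without any other single library its unadjusted p was 0.0597 to 0.146 by edgeR, and it was 0.0571 with limma-voom and 0.0664 with the replicate block of edgeR.

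Of the list members that favour differentiation and myelination, the log2 fold change of miR-138-5p was -0.33 (SE 0.34) and that of miR-23a-3p, which represses lamin B1, was 0.15 (SE 0.23). miR-27a-3p, which acts on the precursor cycle, had 0.25 (SE 0.21). miR-125a-3p, which holds back precursor maturation, had 0.42 (SE 0.30) and was low, with 3.16 to 5.86 CPM. miR-212-3p, also a brake on differentiation, had -0.56 (SE 0.63), with 25.9 CPM in tilianin-treated replicate 2 against 109 to 223 CPM in the other 5 libraries. Without that library its log2 fold change was -0.066. The 5 listed members of the miR-17-92 cluster, which expands precursors, lay between 0.07 for miR-17-5p and 0.63 for miR-18a-5p. The adjusted p of these 10 miRNAs ranged from 0.746 to 0.934 by edgeR. The summed level of the list was highest in 2VO replicate 1 (14252 CPM) and lowest in tilianin-treated replicate 2 (9351 CPM), and this order rested on miR-7a-5p. Without miR-7a-5p the sum was lowest in 2VO replicate 2 (5226 CPM) and highest in tilianin-treated replicate 3 (7883 CPM), with 6646 CPM in tilianin-treated replicate 2. With the whole list but without tilianin-treated replicate 2, the treated group had 10063 to 11783 CPM. The 2VO group had 10779 to 14252 CPM.

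**Figure D4:**
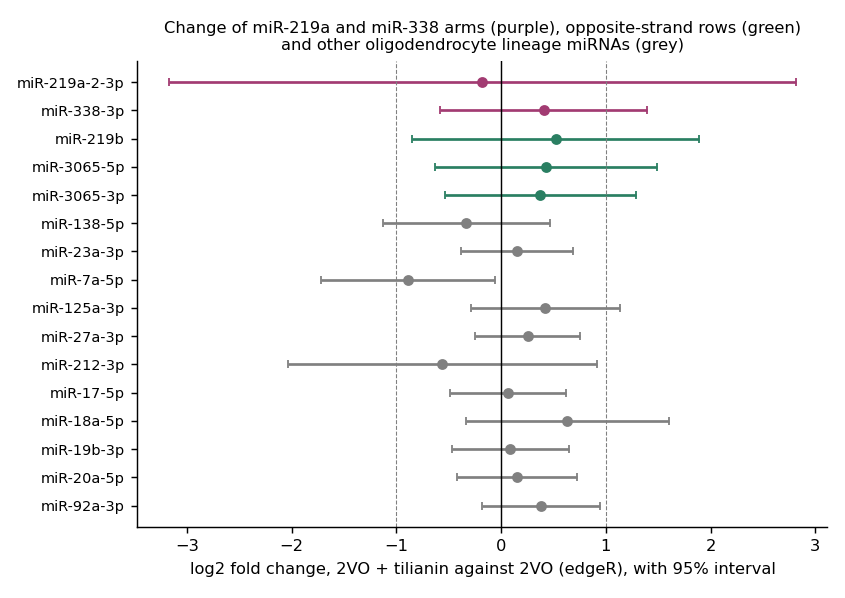
Log2 fold change of tilianin-treated against untreated 2VO libraries with its 95% interval (horizontal axis, edgeR's quasi-likelihood test) for the 2 tested arms (purple), the 3 opposite-strand miRNAs (green) and 11 other oligodendrocyte lineage miRNAs (grey). Dashed lines mark the threshold of 1 in either direction. Of these 16 miRNAs the interval of miR-7a-5p alone lies to one side of 0, and miR-219a-2-3p has the widest, from -3.17 to 2.82.

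Markers of other cells and regions were read beside these values, because tilianin-treated replicate 2 carried the highest level of miR-338-3p and of the opposite-strand miRNAs. The neuronal list (8 miRNAs, all detected) was abundant, as brain tissue implies, with summed levels of 96991 to 130537 CPM in the 2VO group and 62154 to 128268 CPM in the treated group. Its lowest library was tilianin-treated replicate 2, where 6 of the 8 were at their lowest, and the other treated libraries had 120596 to 128268 CPM. The Hox cluster list, which marks hindbrain and spinal cord, had 7 miRNAs, of which miR-196b-5p and miR-196c-5p were at 0 in all libraries. Its summed level was 90.1 to 151 CPM in the 2VO group and 322 to 21745 CPM in the treated group. The highest value was in tilianin-treated replicate 2. Of its 5 tested members 4 were called upregulated, against 21 of all 454 tested miRNAs (4.63%). Without tilianin-treated replicate 2 its summed level in the treated group was 322 to 490 CPM. Then 2 of 4 tested members were called (miR-10a-5p and miR-10b-5p), against 13 of all 445 tested miRNAs in either direction. That library thus combined the highest miR-338-3p and miR-3065-5p with the highest Hox cluster and the lowest neuronal level.

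The choroid plexus list of 3 miRNAs had 120 to 149 CPM in the 2VO group and 122 to 1077 CPM in the treated group. All 3 were called upregulated, against 21 of all 454 tested miRNAs (4.63%). The same share applies to the erythroid list and to the microglia and leukocyte list. The erythroid list (3 miRNAs, of which 1 of 2 tested was upregulated) had 155 to 198 CPM and 338.1 to 881 CPM. Its sum was almost wholly miR-486, with 17138 counts over the 6 libraries. The other members were low, with 6 counts in total for miR-451-5p and 56 for miR-144-3p. Both had overlapping groups, and miR-144-3p had a log2 fold change of 0.60 (SE 1.17). The microglia and leukocyte list (6 miRNAs, 1 upregulated) had 776 to 1163 CPM and 998 to 1403 CPM. Tilianin-treated replicate 2 was the highest library for all 3 lists. Without it the treated group had 122 to 348 CPM for choroid plexus, 338.1 to 406 CPM for erythroid and 998 to 1121 CPM for microglia and leukocytes. The calls were then 1 of 3 (miR-211-5p), 1 of 2 (miR-486) and 0 of 6, against 13 of all 445 tested miRNAs in either direction. The astrocyte list of 3 miRNAs was lowest in that library, with 1161 to 1405 CPM in the 2VO group and 787 to 1458 CPM in the treated group, or 1265 to 1458 CPM without it. The endothelial list of 2 miRNAs had 5372 to 8553 CPM and 6510 to 7203 CPM, and the mural list of 2, both listed on the minus strand, had 1.31 to 2.33 CPM and 1.74 to 3.05 CPM, with no member called in the astrocyte, endothelial or mural lists. The part of these cells and regions in the level of miR-338-3p and its opposite-strand miRNAs was not tested.

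**Figure D5:**
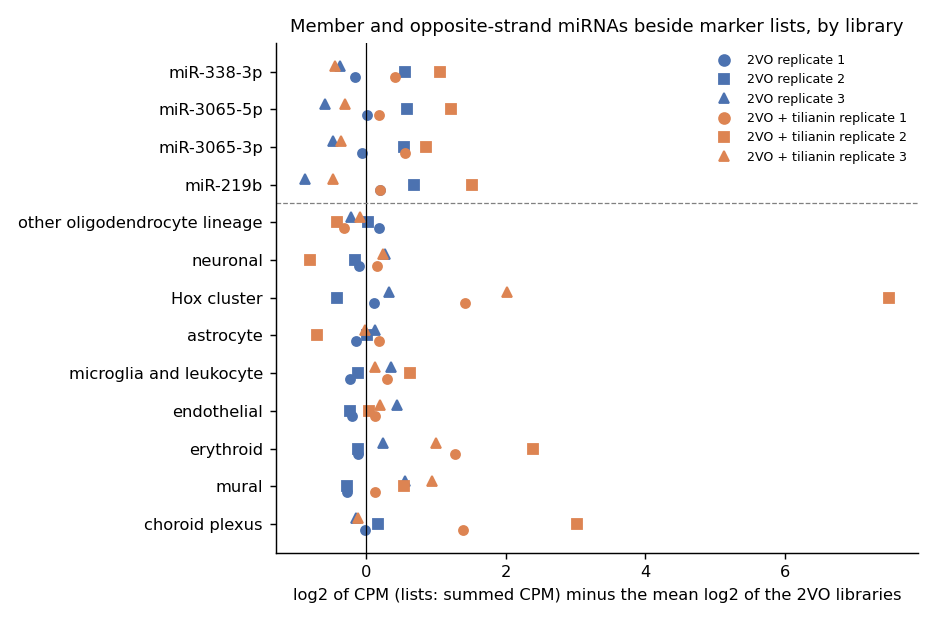
Log2 level in each library relative to the mean log2 level of the 2VO libraries (horizontal axis) for miR-338-3p and the 3 opposite-strand miRNAs (above the dashed line, CPM) and for each marker list (below it, summed CPM). Blue marks 2VO and orange marks 2VO with tilianin, and the shape gives the replicate number. Tilianin-treated replicate 2 is highest for the upper 4 and for the Hox cluster list, where its summed level was 21745 CPM, and lowest for the neuronal and astrocyte lists.

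Among the 268 other tested miRNAs with a mean of at least 10 CPM, those whose log2(CPM + 1) over the 6 libraries followed miR-338-3p most closely were let-7d-3p (Pearson r = 0.993), miR-3065-3p (r = 0.975) and miR-16-5p (r = 0.966). miR-3065-5p had rank 4 (r = 0.959) and miR-219b rank 7 (r = 0.934). The 6 points share the place of tilianin-treated replicate 2 as the highest library, and these values are a description. Over the other 5 libraries r was 0.987 for let-7d-3p (rank 2), 0.981 for miR-3065-3p (rank 3) and 0.925 for miR-16-5p (rank 4). It was 0.912 for miR-3065-5p (rank 5) and 0.853 for miR-219b (rank 15). Rank 1 was then held by a miRNA not named here. For miR-219a-2-3p no such ranking is given, since its 0 to 6 counts do not order the libraries.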

How the data were processed

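Small RNA was sequenced from 6 rat brain libraries (TruSeq Small RNA kit), 3 from the 2VO and 3 from the tilianin-treated 2VO group, and grouped by the sample labels. The authors deposited unnormalized counts of reads per mature miRNA. The submitters' processing notes name FastQC 0.11.2, Trimmomatic 0.36, cutadapt 1.14 and DESeq2 1.12.4. The aligner, counting program, strand setting, miRNA reference and genome build are not given in the sources used here.

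The deposited counts were read as integers, and miRNAs with at least 10 counts in total (454 of 775) entered edgeR's quasi-likelihood fit after TMM scaling (R 4.3.3 with edgeR 4.0.16 and limma 3.58.1), whose design held the group alone. Calls followed the study's screen, an unadjusted p below 0.05 with an absolute log2 fold change above 1. The Benjamini-Hochberg adjustment ran over all tested miRNAs. Standard errors are approximate, being the log2 fold change divided by the root of its F statistic. Exact permutation tests, two-sided, compared single levels as log2(CPM + 1) and arm ratios as log2 values with 0.5 counts added. The fitting script was tested on simulated data. Sequences and strands came from RefSeq (GRCr8), which had no entry for 86 of the 775 miRNAs.

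Named miRNAs are the 5 arms, the listed oligodendrocyte lineage and marker miRNAs, those annotated within 10 kb, and the 3 tested miRNAs with at least 10 CPM most like the leading arm of each family (not given for miR-219a, whose counts were too low). The members and lists were chosen with earlier results of these data known. Alternatives were other scalings (DESeq2 1.42.0 size factors, library totals), tests, filters and constants, a replicate block and leaving out each library. Summing the opposite-strand rows, leaving miR-7a-5p out of its list, and reading the marker lists and correlations without tilianin-treated replicate 2 were chosen after seeing the data. The sources mention no molecular identifiers, so intervals and limits cover counting error only.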

Additional observations from a re-analysis of the deposited data

How the results depend on the processing

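No arm of miR-219a or miR-338 was called under any alternative run. Of the other settings for single miRNAs, 155 values kept their direction and side of the criterion and 1 reversed, namely miR-219a-2-3p at 0.52 once its counts were summed with those of miR-219b, whose counts make up nearly all of the sum. Leaving out 1 library gave log2 fold changes from -0.0030 to 0.78 for miR-338-3p, from -2.40 to 0.39 for miR-219a-2-3p, from -0.23 to 0.93 for miR-219b, from -0.11 to 0.80 for miR-3065-5p, from -1.20 to -0.65 for miR-7a-5p, from -0.063 to 0.29 for miR-17-5p and from -0.074 to 0.25 for miR-19b-3p. The values of miR-338-3p, miR-219b and miR-3065-5p turned negative without tilianin-treated replicate 2. On the log2(CPM + 1) scale the difference in level ran from -0.015 to 0.71 for miR-338-3p and from -0.32 to 0.15 for miR-219a-2-3p. The differences in arm ratio ran from -1.37 to -0.54 for miR-338, from -1.07 to 0.78 for miR-219a-2-3p over miR-219a-5p and from 0.0 to 0.79 for miR-219a-1-3p over miR-219a-5p. The median of the other oligodendrocyte lineage miRNAs ran from 0.038 to 0.29. Over all tested miRNAs, the 21 upregulated calls became 6 with limma-voom, 9 with the replicate block and 7 to 29 without 1 library. For the 5 downregulated calls, filterByExpr, which tested fewer miRNAs, left 2, limma-voom and DESeq2's Wald test each left 3, scaling by library totals gave 8, and the range was 2 to 5 when a library was left out. The count of 0 at an adjusted p below 0.05 became 3 under both edgeR's exact test and the Wald test of DESeq2, and 0 to 4 when a library was left out. Unless stated, the cause was not tested. The replicate numbers showed no clear pairing over the whole table. There the deviations of same-numbered libraries from their group means correlated at -0.12, 0.0092 and 0.30. For miR-338-3p, miR-3065-5p, miR-3065-3p and miR-219b, however, replicate 2 was highest and replicate 3 lowest in both groups. With the replicate block the log2 fold change of miR-338-3p was 0.35 (SE 0.24) and that of miR-219a-2-3p was -0.18. It was 0.36 (SE 0.20) for miR-3065-5p, 0.35 (SE 0.22) for miR-3065-3p and 0.41 (SE 0.25) for miR-219b. Apart from miR-219a-2-3p, each of these had an adjusted p of 0.735 in edgeR's quasi-likelihood test. The miR-219a-2-3p row did not pass filterByExpr, and no fold of miR-219a-5p, miR-219a-1-3p or miR-338-5p is given under any filter, since both groups were at or under 3 counts per library. Depth limits these arms, since a count of 0 allows up to 0.462 CPM after TMM scaling.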

Other observations

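The ratio of the arms of miR-3065, the miRNA opposite miR-338, varied more in the treated group. Among the untreated 2VO libraries, miR-3065-5p had 4.15 to 4.69 counts for each count of miR-3065-3p. Among those from tilianin-treated rats it had 3.43 in replicate 1, 5.71 in replicate 2 and 4.66 in replicate 3. The difference in log2 ratio between the groups was 0.01 (two-sided exact permutation p = 0.9), and the difference in spread was not tested.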
